A study of Mus musculus with 29 samples.

Results

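The 10 immediate early transcription factor genes Fos, Fosb, Fosl2, Jun, Junb, Jund, Atf3, Egr1, Egr2 and Egr3 were followed in microglia from mouse brain, which had been homogenised mechanically on ice and sorted as living CD11b-high, CD45-intermediate, Ly6C-negative cells. They were taken from the count table by symbol, and all 10 were among its 36982 listed genes. A filter on low counts kept 8 of them among 16632 genes tested; Fosb and Egr3 did not pass it. The 29 libraries came from male C57BL/6J mice that were injected into the abdomen at 10 weeks of age and again 5 weeks later, and all brains were taken at 15 weeks, 3 hours after the second injection. An injection held either saline (P) or LPS at 1 mg/kg (L), lipopolysaccharide being a bacterial cell wall product that Toll-like receptors sense. Starting 1 week after the first injection, every mouse was gavaged for 5 days, either with the CSF1R inhibitor BLZ945 at 169 mg/kg per day (B), which removes microglia until new ones fill the brain, or with its cyclodextrin vehicle.

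The group names give first injection, depletion and second injection in that order. PP (n = 5) had saline, vehicle and saline, and PBP (n = 5) had saline, BLZ945 and saline. PL (n = 4) had saline, vehicle and LPS, and PBL (n = 5) had saline, BLZ945 and LPS. LL (n = 5) had LPS, vehicle and LPS, and LBL (n = 5) had LPS, BLZ945 and LPS. No group analysed here had LPS first and saline second, so a level left behind by the first LPS alone was not measured. The labels give 1 sample per library and do not say whether animals were pooled; the p-values cover no more than the spread among the samples, part of which may be technical.

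FOS, JUN and ATF proteins are leucine zipper factors that bind DNA in pairs as the complex AP-1, and EGR proteins are zinc finger factors. Their genes are immediate early genes: MAP kinases and the factors SRF, CREB and NF-kB switch them on within minutes of a stimulus, with no new protein needed, and their transcripts decay quickly. In microglia they respond to LPS, and they are also known to respond when tissue is dissociated and cells are sorted. A level 3 hours after an injection is therefore one point on a fast time course.

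The stretches before the start sites of 4 members are shown because these genes behaved differently in the data: Fos was uneven between libraries, Egr2 was lower after repeated LPS, Jun passed the test after LPS once a pair of libraries was left out, and Atf3 was not called higher in any comparison. Some of these traits were shared: Egr1 and Jun were uneven too, and Fosl2 and Jund were also called lower in LBL than in PBL. Between PBP and PBL Fos, like Jun, passed the test once that pair of libraries was left out. A link of the letters to the levels was not tested. Each is the 250 bases before a RefSeq start site in GRCm38.p6, an older build than the GRCm39 of the counts, written 5′ to 3′ on the gene's strand. Capitals mark matches to the motifs named below. Coordinates and strand are chr12:85473640-85473889, plus, for Fos, chr10:67537619-67537868, plus, for Egr2 (1 of 5 listed starts), chr4:95052223-95052472, minus, for Jun, and chr1:191183334-191183583, minus, for Atf3.
Fos: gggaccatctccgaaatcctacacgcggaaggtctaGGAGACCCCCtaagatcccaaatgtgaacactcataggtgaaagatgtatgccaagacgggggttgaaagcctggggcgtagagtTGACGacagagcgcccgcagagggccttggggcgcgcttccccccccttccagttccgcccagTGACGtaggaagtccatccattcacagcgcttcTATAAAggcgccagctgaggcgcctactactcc
Egr2: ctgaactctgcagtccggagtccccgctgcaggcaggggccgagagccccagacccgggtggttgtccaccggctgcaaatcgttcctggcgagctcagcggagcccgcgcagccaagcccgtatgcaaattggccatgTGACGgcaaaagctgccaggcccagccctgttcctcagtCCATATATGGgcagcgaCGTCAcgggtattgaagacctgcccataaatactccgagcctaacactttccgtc
Jun: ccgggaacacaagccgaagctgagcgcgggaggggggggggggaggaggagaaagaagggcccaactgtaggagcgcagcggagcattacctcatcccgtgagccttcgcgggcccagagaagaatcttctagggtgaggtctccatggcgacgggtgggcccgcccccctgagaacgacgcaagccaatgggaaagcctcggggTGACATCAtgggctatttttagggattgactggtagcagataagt
Atf3: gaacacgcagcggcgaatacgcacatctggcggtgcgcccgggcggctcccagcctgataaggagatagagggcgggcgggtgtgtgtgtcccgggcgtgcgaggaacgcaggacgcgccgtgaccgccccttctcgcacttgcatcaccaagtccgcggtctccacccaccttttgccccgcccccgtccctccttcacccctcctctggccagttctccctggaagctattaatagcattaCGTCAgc

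The capitals in Fos are a kappa B site 214 to 205 bases before the start, the cyclic AMP response element (CRE) core TGACG at 129 to 125 and again at 66 to 62 bases, and the TATA box TATAAA at 33 to 28 bases. In Egr2 a CArG box, the motif of SRF, lies 72 to 63 bases before the start, between CRE cores at 111 to 107 and, on the other strand as CGTCA, at 55 to 51 bases. Jun carries the AP-1 variant TGACATCA 45 to 38 bases before its start. Atf3 has the CRE core as CGTCA at 7 to 3 bases. Both strands were searched for all motifs except the TATA box. Of 32851 RefSeq windows of 250 bases, 1.47% hold a CArG box, 7.25% a kappa B site, 17.8% the CRE core, 2.93% TGACATCA and 7.59% TATAAA. The full element TGACGTCA, which contains the core and is in 1.55% of windows, and the AP-1 site TGANTCA, in 6.75%, had no match in the windows of the 8 members searched. The EGR site GCGNGGGCG, in 4.7% of windows, matched before Fosb and Fosl2. A match is a description of letters and not a measured binding site.

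Total counts per library lay between 5670450 and 12671476. Levels are CPM, read counts relative to the scaled total of the library, and are compared within a gene, not between genes. Microglia marker genes, 10 of 10 of which were measured in every group, summed to 61411 to 73362 CPM in PP, 50357 to 69531 CPM in PBP, 47280 to 54770 CPM in PL, 33981 to 48424 CPM in PBL, 42152 to 52870 CPM in LL and 41512 to 47196 CPM in LBL. They were lower with a first LPS, 7 of 10 being called lower between PP and PL and 9 of 10 between PBP and PBL. Of all genes tested, 14.2% were called higher and 11.9% lower between PP and PL. Between PBP and PBL it was 21.5% in each direction. Astrocyte genes, 8 in all, summed to 386 to 592 CPM over the saline libraries and 682 to 1021 CPM over the LPS libraries, with 1 called higher and 1 lower between PP and PL and 7 higher between PBP and PBL. Of markers of other cells, 10 neuron genes summed to 11.9 to 37.3 CPM in PP, 24.4 to 50.2 CPM in PL and 26.3 to 176 CPM in PBP. In the groups sorted on another machine the sums were 127 to 243 CPM for PBL, 53.9 to 234 CPM for LL and 89.1 to 227 CPM for LBL, and none of the 10 was at 0 in a whole group. The summed level of 9 neutrophil genes was 127 to 484 CPM in PBL and at most 35.1 CPM elsewhere, with Ly6g at 0 in every group but PBL. Border-associated macrophage genes, 6 in all, summed to 69.5 to 115 CPM in PL and 11.5 to 25.5 CPM in PBL. They summed to 40.4 to 71.3 CPM in LL and 6.89 to 17.9 CPM in LBL. Lymphocyte genes, 6 in all, summed to 766 to 946 CPM in PP and 313 to 351 CPM in PL. In PBP and PBL they summed to 468 to 730 and 155 to 262 CPM. Sums for monocyte, endothelial and oligodendrocyte genes are not given here. The part of these cells in the results below was not tested. Since the samples are bulk, fewer cells of a type and less RNA per cell cannot be told apart.

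Replicate 1 of PP and replicate 1 of PBP stood apart from the rest of their groups in these genes. In PP replicate 1 Fos was 17.3 times the median of the other 4 PP libraries, Egr1 11.5 times and Jun 4.26 times. In PBP replicate 1 the ratios were 94.3 for Fos, 33.6 for Egr1 and 8.31 for Jun. Such a distance was uncommon in the same libraries: 43 of 14058 genes at 1 CPM or more in PP (0.306%) and 62 of 14564 in PBP (0.426%) were at least 4 times the median of the others. Fosb showed it too, with 41 counts in PP replicate 1 and 44 in PBP replicate 1, against 0 to 6 in every other library of the series.

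Several other immediate early genes were high in the same libraries, and a few were low. Dusp1, which encodes a phosphatase that shuts off MAP kinases, was 5.16 times the median of the others in PP replicate 1 and 7.30 times in PBP replicate 1. Klf4, a zinc finger factor gene, was at 5.52 and 4.83 times, Ier2 at 7.47 and 2.91 times, and Zfp36, which encodes a protein that destabilises cytokine transcripts, at 1.85 and 3.99 times. In all, 10 of 16 tested genes of that list were highest in replicate 1 in PP and 10 of 16 in PBP, a count not made over all genes. In PBP replicate 1, 3 of the 16 were the lowest of the group: Nr4a1, an orphan nuclear receptor gene, at 0.0564 times the median of the others, Nr4a2 at 0 counts and Zfp36l1 at 0.876 times. Of 6 tested heat shock genes, which also react to handling, 0 were highest in replicate 1 of either group. Summed over the 8 listed, heat shock genes were at 413, 806, 592, 462 and 318 CPM in PBP replicates 1 to 5. The part of handling in these levels was not tested. Fosl2, Atf3 and Egr2 in PP replicate 1 and PBP replicate 1 lay at 0.839 to 2.45 times the median of the others.

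**Figure D1:**
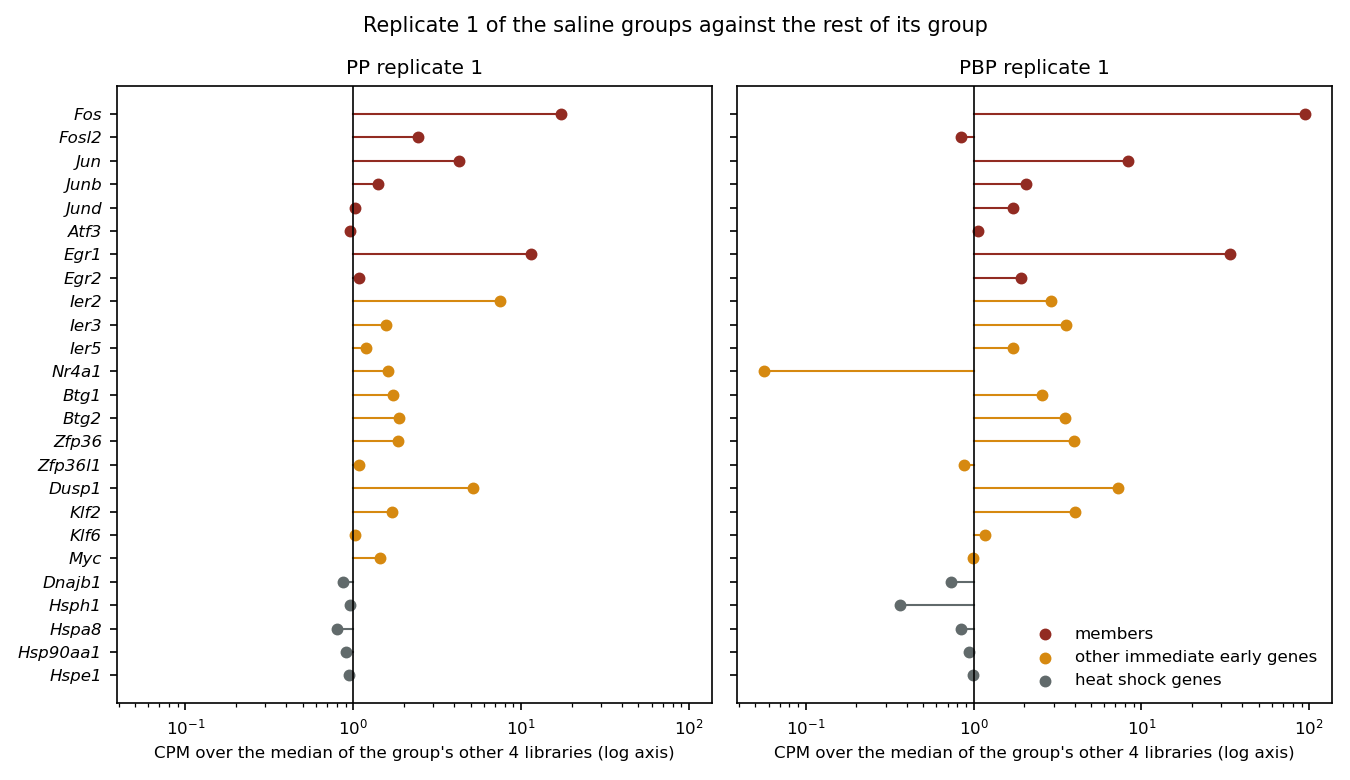
CPM in replicate 1 of PP (left) and PBP (right) divided by the median of the other 4 libraries of its group, for the 8 tested members (red), other immediate early genes (orange) and heat shock genes (grey) with a median of at least 1 CPM in both groups; the axis is logarithmic and the vertical line marks 1. Fos (17.3 and 94.3) and Egr1 (11.5 and 33.6) lie farthest right in both panels, and the heat shock genes lie left of the line.

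RNA quality did not set the pair apart. Their RNA quality numbers, an integrity score on which higher is better, were 8.9 and 8.8, within the 8.6 to 9.1 of PP and the 7.4 to 9 of PBP. Neuron marker sums were 11.9 CPM in PP replicate 1, the lowest of its group, and 29.9 CPM in PBP replicate 1, the median of its group. PP replicate 1 was sorted on day 5 with all other PP libraries and PBP replicate 1 on day 4 with PBP replicates 2 to 4, on the same sorter. Handling time of single animals is not given in the sources used here. Results that use PP or PBP are therefore given with and without these 2 libraries, a comparison chosen after seeing the data. The pair was picked by its high Fos, Jun and Egr1. Larger rises and smaller SEs of these genes without the pair follow from that choice, and their p-values there are no separate test.

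Fos (ENSMUSG00000021250, chromosome 12) encodes the classic short-lived partner of JUN. It stood at 42.1, 1.48, 1.52, 3.36 and 3.40 CPM in PP replicates 1 to 5 and at 102, 0.772, 1.75, 0.626 and 1.40 CPM in PBP. After a first LPS it was at 138, 52.9, 131 and 124 CPM in PL and at 54.7, 104, 79.9, 73.1 and 106 CPM in PBL. All PL libraries lay above all PP libraries, PL replicate 2 being the lowest, whereas PBP replicate 1 lay inside the PBL range. After repeated LPS Fos was at 53.4, 40.2, 32.9, 45.7 and 32.1 CPM in LL and at 60.4, 14.1, 18.3, 9.54 and 38.3 CPM in LBL. Replicate 1 was the highest of both, LL lay wholly below PBL, and of the PP libraries the LBL range held replicate 1 alone.

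Fosl2 (ENSMUSG00000029135, chromosome 5) encodes FRA-2, a FOS relative that lacks the strong activation domain of FOS. Its levels in PP were 11.4, 2.97, 3.92, 5.40 and 9.32 CPM and in PBP 8.97, 8.10, 11.0, 10.8 and 10.6 CPM. With a first LPS they were 252, 196, 251 and 232 CPM in PL and 243, 275.5, 238, 260.1 and 261 CPM in PBL. Every LPS library was above every saline library, and no library stood out. Repeated LPS gave 181, 131, 155, 125 and 173 CPM in LL and 192, 127, 174, 131 and 165 CPM in LBL, below every library of PL and PBL.

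Fosb (ENSMUSG00000003545, chromosome 7), a further FOS family gene, was too low to test with the others. Its PP counts were 41, 1, 0, 1 and 2, its PBP counts 44, 3, 0, 0 and 2. All 4 PL libraries had 0 counts, which allows a level of up to 0.101 CPM over the group (3 counts; counting error only), and PBL, LL and LBL held 9, 8 and 1 counts in all. With no filter on low counts edgeR's quasi-likelihood test called Fosb lower in PL than in PP (adjusted p = 0.0441), a call in which 41 of the 45 PP counts came from replicate 1, and lower in LBL than in PBP (0.0478), where it was 44 of 49.

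Among the JUN genes, Jun (ENSMUSG00000052684, chromosome 4) encodes the partner through which most AP-1 pairs bind DNA. It was at 708, 232, 155, 177 and 154 CPM in PP and at 1245, 177, 134, 165 and 130.5 CPM in PBP. The LPS groups were at 440.1, 408, 451 and 479 CPM in PL, 383, 597, 426, 347 and 586 CPM in PBL, 388, 632, 400.2, 462 and 279.9 CPM in LL, and 527, 355, 408, 282 and 398 CPM in LBL. The 2 highest values of all 29 libraries were thus those of saline mice, PP and PBP replicate 1, while the other 8 saline libraries lay below every LPS library.

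Junb (ENSMUSG00000052837, chromosome 8) encodes a JUN relative that often restrains JUN. It rose from 200.0, 166, 112, 142 and 143 CPM in PP to 989, 1024, 1817 and 1153 CPM in PL, and from 356, 185, 162, 310.0 and 112 CPM in PBP to 1134, 1968, 1520.5, 895 and 2309 CPM in PBL. Repeated LPS gave 575, 1154, 437, 415 and 401 CPM in LL, where replicate 2 stood above the rest, and 1730.5, 1039, 1106, 516 and 1221 CPM in LBL. LL and LBL overlapped, and both lay above all saline libraries.

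Jund (ENSMUSG00000071076, chromosome 8) encodes the JUN protein present in resting cells of most tissues. Its levels were 10.0, 9.17, 11.6, 8.99 and 10.3 CPM in PP, 11.9, 6.17, 9.27, 5.63 and 7.61 CPM in PBP, 27.1, 16.6, 45.2 and 31.5 CPM in PL and 33.7, 37.5, 37.1, 45.6 and 36.6 CPM in PBL. With repeated LPS they were 25.4, 19.0, 24.4, 21.0 and 24.9 CPM in LL and 20.7, 11.5, 17.5, 14.4 and 18.7 CPM in LBL. LBL lay wholly below PBL, whereas LL overlapped PL.

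Atf3 (ENSMUSG00000026628, chromosome 1) encodes a repressor that limits Toll-like receptor responses in macrophages. It was at 24.3, 30.5, 20.0, 30.5 and 17.4 CPM in PP, 20.4, 20.8, 18.7, 19.6 and 14.9 CPM in PBP, 22.4, 15.5, 20.4 and 18.7 CPM in PL and 17.7, 6.39, 19.7, 18.0 and 5.60 CPM in PBL. LL was at 11.1, 11.8, 10.5, 9.41 and 11.2 CPM and LBL at 12.3, 8.55, 6.83, 6.55 and 9.26 CPM. By group median Atf3 was highest in saline mice, where the other tested members were lowest, but neighbouring groups in its order overlapped. As in the other tested members, its LL median was below that of PL and its LBL median below that of PBL. LL and LBL lay below every PP and PBP library. In PBL, replicates 2 and 5 stood well below the other 3.

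Egr1 (ENSMUSG00000038418) encodes the best known EGR factor. In PP it was at 60.3, 5.12, 2.66, 5.40 and 7.94 CPM and in PBP at 152, 8.87, 4.57, 2.24 and 4.50 CPM. A first LPS gave 660.0, 148, 518 and 590 CPM in PL and 285, 592, 285, 553 and 713 CPM in PBL. PBP replicate 1 was on a level with the lowest PL library, and every other saline library was far below. Repeated LPS gave 135, 93.9, 88.9, 98.5 and 95.3 CPM in LL, below all of PL, and 315, 47.2, 88.7, 36.5 and 109.8 CPM in LBL, where replicate 1 reached into the PBL range.

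Egr2 (ENSMUSG00000037868, chromosome 10), also known as Krox20, encodes an EGR factor known from myelinating glia and macrophages. It was at 3.47, 3.51, 1.52, 5.04 and 2.90 CPM in PP and 5.51, 2.57, 5.24, 2.95 and 2.80 CPM in PBP. A first LPS gave 121, 57.8, 83.6 and 117 CPM in PL and 76.9, 85.8, 59.5, 64.9 and 99.2 CPM in PBL. Unlike Egr1, it lay below every LPS library in both saline replicates 1, although PBP replicate 1 was the highest of PBP. Repeated LPS gave 57.7, 19.0, 22.9, 20.6 and 25.2 CPM in LL and 80.1, 19.1, 22.3, 17.2 and 28.5 CPM in LBL, with replicate 1 the highest in both groups. Egr3 (ENSMUSG00000033730, chromosome 14) had 0 to 14 counts per library, at most 1.53 CPM, and was not tested with the others.

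**Figure D2:**
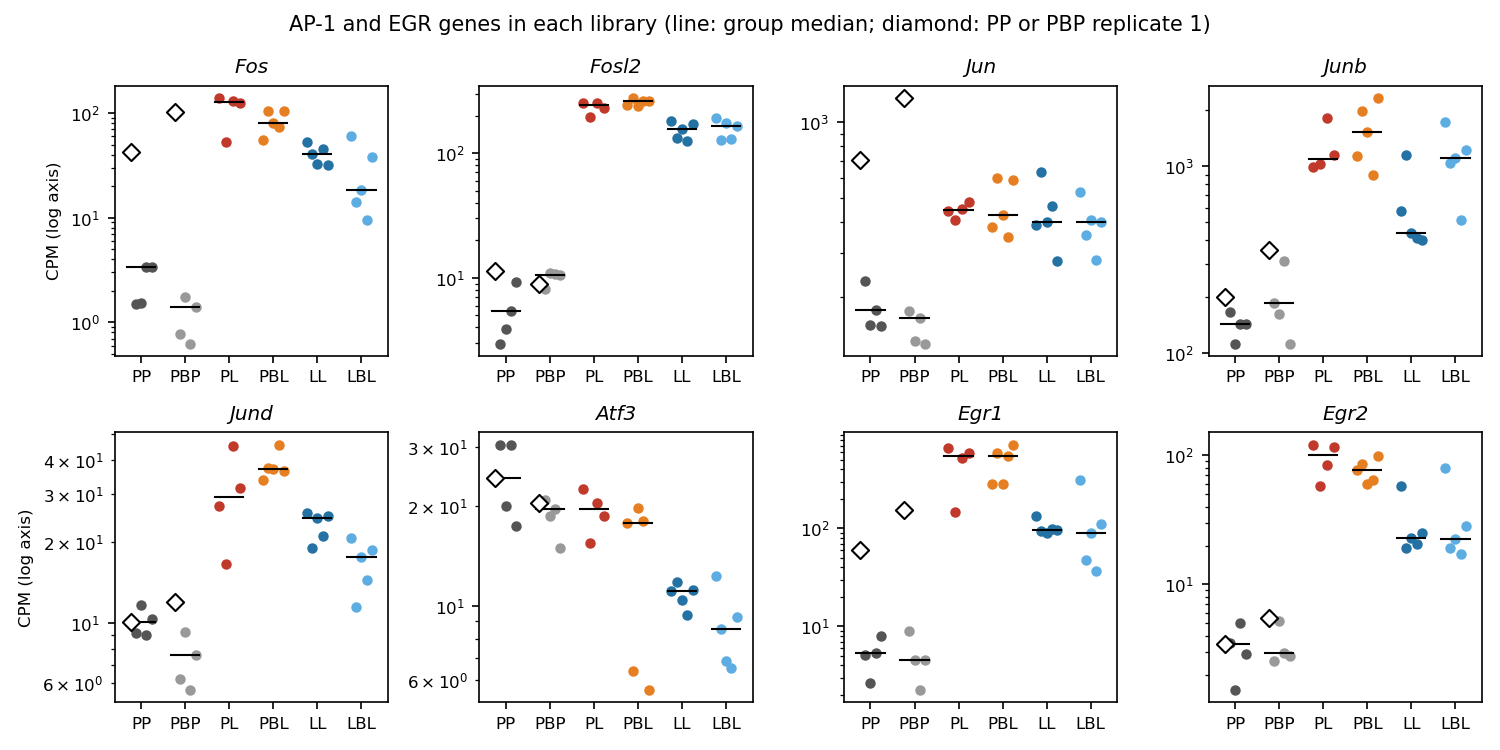
CPM of the 8 tested members in each of the 29 libraries on a logarithmic axis, by group, replicates left to right, with a line at the group median; diamonds mark replicate 1 of PP and PBP. The diamonds lie far above the other saline libraries for Fos, Jun and Egr1. For Fosl2 and Egr2 1 diamond is the highest saline point by a small margin (11.4 CPM in PP replicate 1 and 5.51 CPM in PBP replicate 1), and for Atf3 both lie among the others.

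Ordered by group median, Fos, Jun, Egr1 and Egr2 shared one order from low to high: PBP, PP, LBL, LL, PBL, PL. Neighbours that did not overlap in that order were LL and PBL for Fos, Egr1 and Egr2, and PP and LBL for Egr2. For Fosl2 the order was PP, PBP, LL, LBL, PL, PBL, with gaps between PBP and LL and between LBL and PL. Junb had a gap between PBP and LL only, and no neighbours were separate for Jun, Jund or Atf3.

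Which members responded to LPS in microglia that had seen neither LPS nor depletion? Between PP and PL, Fosl2 rose by a log2 fold change of 5.13 (SE 0.22, edgeR's quasi-likelihood test with Benjamini-Hochberg adjustment, adjusted p = 2.10e-19), Egr1 by 4.87 (SE 1.05, 0.0010), Egr2 by 4.84 (SE 0.45, 3.08e-09) and Junb by 3.03 (SE 0.39, 1.35e-06). Fos rose by 3.42 (SE 1.07, 0.0199) and Jund by 1.59 (SE 0.22, 4.29e-07). Of the 8 tested members 6 rose and 0 fell, where 14.2% of all genes tested rose and 11.9% fell at an adjusted p under 0.05. In the same 6 every PL library lay above every PP library, as in 11.5% of all genes. Jun was at 0.64 (SE 0.55, 0.433) and Atf3 at -0.35 (SE 0.26, 0.348). The median log2 fold change was 3.23 over the 8 members and -0.00 over all genes tested.

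Without PP and PBP replicate 1, 7 of 8 members rose and 0 fell, where 13% of all genes rose and 10.7% fell: Jun passed the test at 1.31 (SE 0.20, 7.01e-06), and Fos came to 5.50 (SE 0.52) and Egr1 to 6.50 (SE 0.70). The larger changes of Jun, Fos and Egr1 follow from how the pair was picked. PP and PL were sorted on the same sorter, and PL replicates 3 and 4 on day 5 with all of PP. With sorting day in the fit the same number rose, 6, with Fos at 3.61 and Egr2 at 4.92. The share of all genes that rose in that fit is not given here.

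Did the microglia that regrew after depletion respond in these genes? Between PBP and PBL, Fosl2 rose by 4.69 (SE 0.21, edgeR adjusted p = 3.81e-19), Egr2 by 4.33 (SE 0.43, 7.49e-09), Egr1 by 3.80 (SE 0.97, 0.00287), Junb by 2.80 (SE 0.38, 1.64e-06) and Jund by 2.23 (SE 0.21, 1.52e-10). That made 5 of 8 higher and 0 lower, beside 21.5% of all genes called higher and 21.5% called lower, and in the same 5 all PBL libraries lay above all PBP libraries, beside 12.5% of all genes. Fos was at 1.94 (SE 0.97, 0.111), Jun at 0.34 (SE 0.52, 0.631) and Atf3 at -0.49 (SE 0.25, 0.108). The median was 2.51 over the members and 0.00 over all genes tested.

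Both Fos and Jun gained a call without PBP replicate 1; with it kept, Fos was called by limma voom (4.85, adjusted p = 0.000362) and with the replicate number as a block (3.61, 0.00317). Without PP and PBP replicate 1, Fos rose by 6.25 (SE 0.57, edgeR adjusted p = 3.27e-09), Jun by 1.62 (SE 0.20, 7.17e-08) and Egr1 by 6.62 (SE 0.70), so that 7 of 8 rose and 0 fell, where 19.1% of all genes rose and 19.8% fell. Again the larger changes of Fos, Jun and Egr1 follow from how the pair was picked. PBL was sorted on day 3 on another sorter than PBP replicates 1 to 4; PBP replicate 5 shares day and sorter with PBL. That library had 1.40 CPM of Fos, 4.50 of Egr1, 2.80 of Egr2, 130.5 of Jun and 112 of Junb, all below every PBL library, while its neuron marker sum, 176 CPM, lay inside the PBL range. With the sorter in the fit 4 members rose and Egr1 lost its call (6.75, adjusted p = 0.0757). The share of all genes that rose in that fit is not given here. The sorter's effect in it comes from PBP alone, replicate 5 against replicates 1 to 4.

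**Figure D3:**
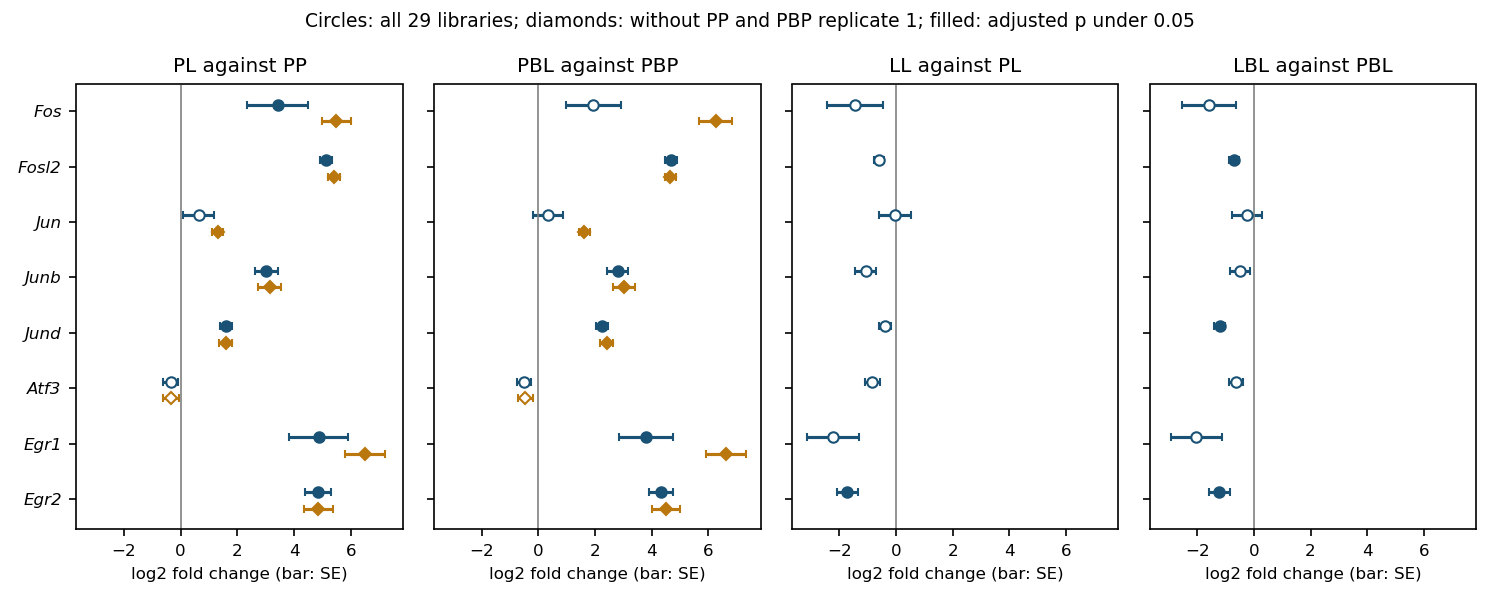
Log2 fold changes of the 8 tested members in 4 comparisons; circles use all 29 libraries, diamonds leave out PP and PBP replicate 1, bars are standard errors and filled symbols have an adjusted p under 0.05. In the first 2 panels Fos, Jun and Egr1 move right without the pair (Fos from 3.42 to 5.50 and from 1.94 to 6.25), and Atf3 stays near 0 in both.

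Was the response itself different after depletion? Between PP and PBP 0 of 8 members were called in either direction (edgeR; 0.289% of all genes higher, 0.241% lower; 1 member, Fosl2, had an unadjusted p under 0.05), and DESeq2 and limma voom called 0 as well. Without the pair of replicate 1 libraries 0 were called (0.14% and 0.146% of all genes), with Fosl2 at 0.90 (SE 0.22, adjusted p = 0.0747). Between PL and PBL 0 of 8 were called (11% of all genes higher, 11.1% lower), with 0 at an unadjusted p under 0.05; limma voom called 1 lower, Atf3 (-0.74, adjusted p = 0.0420), and DESeq2 0. The intervals (95%) of that difference ran from -0.24 to 0.51 for Fosl2, from -1.06 to 0.47 for Egr2, from -0.44 to 1.10 for Junb and from -1.85 to 1.89 for Egr1, so a difference of several fold in Egr1 was within the interval. Jund was called higher in PBL (0.63, adjusted p = 0.0328) once PL replicate 3 was left out. The test of the difference between both LPS responses called 0 of 8 members (0% of all genes in each direction; Jund 0.64, SE 0.30, adjusted p = 0.370, the 1 member with an unadjusted p under 0.05, beside 2120 of all genes). Without the pair of replicate 1 libraries 0 were called too, and Fosl2 was at -0.77 (SE 0.27, adjusted p = 0.341). PP was sorted on day 5 and PBP on days 3 and 4. PL was sorted on days 4 and 5, and PBL on day 3 on the other sorter. Neither pair shared a day, so depletion and sorting cannot be told apart within these pairs.

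How did an LPS injection 5 weeks earlier change the levels? In mice that kept their microglia, Egr2 fell between PL and LL by 1.71 on the log2 scale (SE 0.38, edgeR adjusted p = 0.00942), to a level 3.28-fold lower. It was the 1 member of 8 called lower, beside 2.03% of all genes, and 0 were called higher, beside 0.752%. Fosl2 was at -0.61 (SE 0.18, 0.0605), Atf3 at -0.83 (SE 0.26, 0.0795), Junb at -1.06 (SE 0.37, 0.138) and Egr1 at -2.23 (SE 0.93, 0.231). In Fosl2, Atf3, Egr1 and Egr2, 4 of 8 members, every LL library was below every PL library, which was so for 2.84% of all genes. Fos was at -1.45 (SE 0.98, 0.509), Jund at -0.40 (SE 0.21, 0.351) and Jun at -0.04 (SE 0.55, 0.984), and the median was -0.95 over the members and 0.01 over all genes tested.

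The number called depended on the tool and on single libraries. DESeq2 called 3 members lower (Fosl2, Atf3 and Egr2), and a fit on PL and LL alone called 5, adding Fos (-1.44, adjusted p = 0.00215) and Egr1 (-2.21, 0.00978). The share of all genes called in these fits is not given here, so both counts lack a background. Fosl2 passed without PL replicate 2 (-0.68, adjusted p = 0.0424) or without LL replicate 1 (-0.67, 0.0464), and Junb without LL replicate 2 (-1.45, 0.0252). Egr2 lost its call when the sorter was a term (-1.19, adjusted p = 0.698), in a fit that takes the sorter's effect from PBP alone. LL was sorted on days 1 and 2 and on the other sorter than PL, with no shared day, so earlier LPS and sorting day cannot be told apart.

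In repopulated microglia, Jund fell between PBL and LBL by 1.21 on the log2 scale (SE 0.20, edgeR adjusted p = 0.00012), Fosl2 by 0.70 (SE 0.17, 0.00956) and Egr2 by 1.22 (SE 0.36, 0.0400). These were 3 of 8 members, beside 4% of all genes called lower, and 0 were called higher, beside 2.74%. In Jund and Fosl2, 2 of 8, LBL lay wholly below PBL, as in 4.44% of all genes. Egr1 was at -2.03 (SE 0.89, 0.197), Fos at -1.59 (SE 0.96, 0.394), Atf3 at -0.63 (SE 0.26, 0.146), Junb at -0.48 (SE 0.35, 0.506) and Jun at -0.25 (SE 0.52, 0.865). The median over the members was again -0.95, against 0.01 over all genes tested.

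Jund and Fosl2 kept their calls in every alternative run for this comparison, whereas the Egr2 call was lost without any 1 of PBL replicates 1, 2, 4 and 5 or LBL replicates 2 to 5 (-1.06 to -1.28, adjusted p 0.0542 to 0.122). Egr2 also missed the threshold with RNA quality in the fit (-1.37, 0.0552), with no filter on low counts (-1.21, 0.0958) and with PBL and LBL alone (-1.23, 0.0820). Atf3 gained a call without PBL replicate 2 (-0.81, 0.0449) or replicate 5 (-0.84, 0.0303). Both groups were sorted on the same sorter, PBL on day 3 and LBL on days 1 and 2, so day and earlier LPS cannot be told apart here either. Neutrophil marker genes were higher in PBL than in LBL (127 to 484 against 0.804 to 4.73 CPM in sum), and their part in these falls was not tested. The test of whether depletion changed the effect of earlier LPS called 0 of 8 members (0.012% of all genes in each direction); Jund, at -0.81 (SE 0.29, adjusted p = 0.233), was the 1 member with an unadjusted p under 0.05. Between LL and LBL 0 of 8 were called (0.487% of all genes higher, 0.722% lower; 0 with DESeq2 and limma voom) and 2 had an unadjusted p under 0.05; Junb was at 0.91 (SE 0.35, 0.251) and Jund at -0.48 (SE 0.20, 0.295).

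Levels after repeated LPS were still compared with saline. Between PP and LL, Fosl2 (4.53, SE 0.21), Egr2 (3.13, SE 0.44), Egr1 (2.64, SE 0.96), Junb (1.97, SE 0.37) and Jund (1.19, SE 0.21) rose, 5 of 8 members beside 18.9% of all genes. Atf3 fell by 1.18 (SE 0.25, edgeR adjusted p = 0.00041), to 2.27-fold lower, beside 13.2% of all genes called lower. Between PBP and LBL, Fosl2 (3.99, SE 0.20), Egr2 (3.11, SE 0.43), Junb (2.32, SE 0.37) and Jund (1.02, SE 0.21) rose, 4 of 8 beside 14.6%, and Atf3 fell by 1.12 (SE 0.25, adjusted p = 0.000894) beside 13.6%. When the sorter was a term, both Atf3 calls were lost (-0.77, adjusted p = 0.410, and -0.78, 0.286), as were both Jund calls (1.30, 0.0869, and 1.11, 0.0822) and the Egr1 call between PP and LL (5.87, 0.185). The sorter's effect again came from PBP alone, replicate 5 against replicates 1 to 4, with the outlying replicate 1 among them. These comparisons share their saline libraries with the first LPS comparisons.

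Without PP and PBP replicate 1, 7 of 8 members rose in LL over PP (16.4% of all genes) and 7 of 8 in LBL over PBP (12.3%), with Atf3 lower in both (11.6% and 11.8% of all genes lower). Fos then rose by 4.04 (SE 0.50) and 4.66 (SE 0.57) and Jun by 1.27 (SE 0.19) and 1.37 (SE 0.19). As before, larger changes of Fos, Jun and Egr1 follow from how the pair was picked. The Egr1 call between PP and LL was lost without any 1 of PP replicates 2 to 5 or LL replicates 1, 3, 4 and 5 (2.37 to 2.67, adjusted p 0.0506 to 0.0843), whereas without the pair Egr1 rose by 4.27 (SE 0.65) and, in LBL over PBP, by 4.59 (SE 0.66).

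RNA quality was also set against the members within groups. In a fit with the RNA quality number beside the groups, 0 of 8 members were called, beside 2.07% of all genes higher and 2.75% lower. Jund had the smallest p, with a change of -0.21 on the log2 scale per unit (SE 0.10, unadjusted p = 0.0486, edgeR adjusted p = 0.246). For Fos the change was 0.02 (SE 0.55) and for Egr1 0.15 (SE 0.51). The library with the lowest number of the series, 6.5, was PL replicate 3, which had the highest Jund (45.2 CPM) and Junb (1817 CPM) of PL.

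Quality, day and sorter differed between some of the groups, while PP and PL shared a sorter and, in part, a day. PBL had the lowest RNA quality numbers as a group (7.4 to 7.9) and PP the highest (8.6 to 9.1), beside ranges of 6.5 to 9.1 for PL, 7.4 to 9 for PBP, 7.9 to 8.9 for LL and 7.6 to 8.9 for LBL. PL replicates 1 and 2 were sorted on day 4 with PBP replicates 1 to 4, with Fos at 138 and 52.9 CPM and Egr1 at 660.0 and 148 CPM. LL replicate 5, the 1 LL library sorted on day 1 beside 4 LBL libraries, had Fos at 32.1 CPM, the lowest of LL, and Egr1 at 95.3 CPM, inside the range of the LL libraries of day 2. LBL replicate 5, sorted on day 2 beside 4 LL libraries, had 38.3 and 109.8 CPM, inside the range of LBL.

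**Figure D4:**
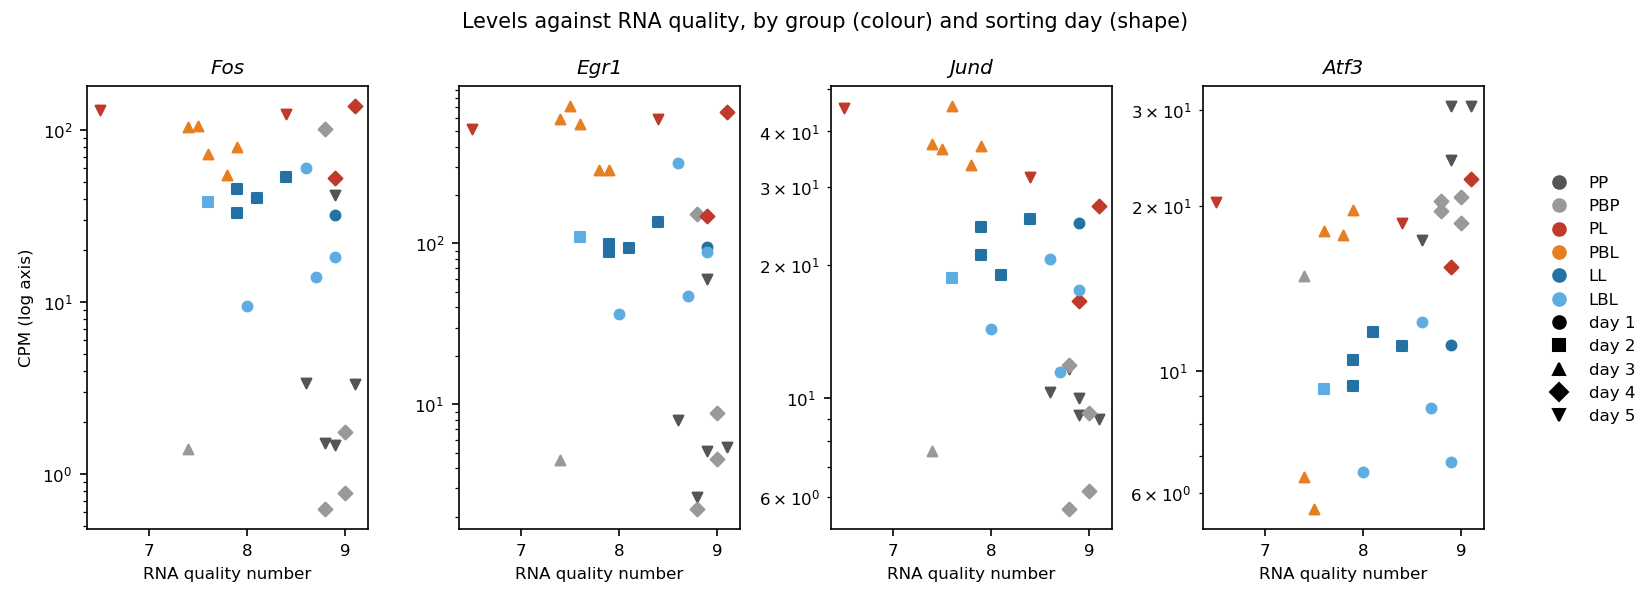
CPM (logarithmic axis) of Fos, Egr1, Jund and Atf3 in the 29 libraries against the RNA quality number, with colour for the group and shape for the sorting day. In the fit with quality beside the groups 0 of 8 members were called; the PL library at 6.5 lies with the other PL libraries for Fos and Egr1 and is the highest PL library for Jund.

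Several genes around the members rose with them after a first LPS. Over all genes tested, 14.2% were called higher and 11.9% lower between PP and PL, and 21.5% in each direction between PBP and PBL. Of 10 tested bZIP genes that pair with or sit beside AP-1, 5 rose and 0 fell between PP and PL, led by Maff (3.99, SE 0.67), a small MAF factor gene, and Batf (3.10, SE 0.13), whose product pairs with JUN; between PBP and PBL 5 rose and 1 fell, Maff (4.14, SE 0.64) and Jdp2 (3.90, SE 0.65) ahead and Batf3 lower (-0.50, SE 0.18). Both tested corepressor genes of EGR proteins rose in both comparisons, Nab2 by 3.25 (SE 0.30) and 3.02 (SE 0.29) and Nab1 by 2.29 (SE 0.24) and 2.27 (SE 0.23). Of 16 other immediate early genes 15 rose and 0 fell in each. Dusp1 rose by 6.08 (SE 0.76) and Dusp2 by 6.06 (SE 0.74) between PP and PL; Dusp2 rose by 7.80 (SE 0.81) and Ier3 by 6.46 (SE 0.37) between PBP and PBL. Without the pair of replicate 1 libraries 15 and 14 of the 16 rose, beside 13% and 19.1% of all genes.

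Kinases and factors upstream of the members were called in both directions. Of 20 tested, 5 rose and 4 fell between PP and PL, where 14.2% of all genes rose and 11.9% fell. Between PBP and PBL 6 rose and 7 fell, where 21.5% of all genes rose and 21.5% fell. Map3k8, the kinase gene that links NF-kB signalling to ERK, rose by 4.84 (SE 0.22) and 4.07 (SE 0.21), and Map2k3, which encodes an activator of p38, by 2.16 (SE 0.13) and 2.31 (SE 0.13). Mapk14, the p38 alpha gene, fell by 0.66 (SE 0.14) and 1.12 (SE 0.13). Heat shock genes were called higher in 3 of 6 cases and lower in 0 between PP and PL (2 without the pair), and in 1 and 2 cases between PBP and PBL. Between PP and PBP 1 of the 6, Hspa1a, rose (3.83, SE 0.84) and 0 fell, beside 0.289% and 0.241% of all genes.

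Dusp1 and Dusp2, both MAP kinase phosphatase genes, were lower with earlier LPS. Dusp2 fell by 3.77 (SE 0.60, edgeR adjusted p = 0.000178) and Dusp1 by 2.62 (SE 0.64, 0.0243) between PL and LL, and by 4.67 (SE 0.62) and 2.88 (SE 0.63) between PBL and LBL. In these 2 comparisons 3 and 4 of the 16 other immediate early genes fell; 0 rose in the first, and 2, Myc (0.85, SE 0.22) and Klf6 (0.40, SE 0.09), rose in the second. Over all genes tested, 2.03% were called lower and 0.752% higher in the first, and 4% lower and 2.74% higher in the second. Maff fell by 2.12 (SE 0.58) and 2.60 (SE 0.58) and Batf by 0.52 (SE 0.12) and 0.51 (SE 0.12), the 2 of 10 bZIP genes called lower in each. Map2k3 fell by 0.75 (SE 0.13) and 0.99 (SE 0.12), 1 of 2 and of 5 upstream genes called lower, and Nab1 fell by 1.01 (SE 0.22) between PBL and LBL (-0.71, SE 0.23, adjusted p = 0.0955, between PL and LL). Klf4, named after its values were seen, was at 47.9 ± 6.51 CPM in PL (SD, n = 4), 42.6 ± 10.1 in PBL, 41.7 ± 8.62 in LL and 46.5 ± 5.37 in LBL (n = 5 each), after 2.17 ± 2.23 CPM in PP and 1.73 ± 1.65 CPM in PBP.

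Genes whose 6 group means, centred, lay closest to those of a member were found by the root mean square difference in log2 CPM. For Egr1 these were Tnf (0.17), Dusp1 (0.37) and Tnfsf9 (0.39), for Fos Ccl4 (0.36), Clec4e (0.37) and Rasd1 (0.39), and for Egr2 1700023B13Rik (0.29), Id2 (0.30) and Csrnp1 (0.31). Fosl2 was closest to Pim1 (0.24), Gm16175 (0.24) and Arid5a (0.26), and Junb to Bcar1 (0.15), Rhbdf2 (0.20) and Tgm2 (0.21). For Jun, whose group means span 0.99 on the log2 scale, they were Syncrip (0.04), Crk (0.05) and Gtf2a2 (0.05), for Jund Slfn10-ps (0.12), Pmel (0.13) and Rpl31-ps6 (0.14), and for Atf3 Dscc1 (0.08), Peak1 (0.12) and Cd101 (0.13). Among the members themselves Fos and Egr2 were the closest pair (0.34). The group means include PP and PBP replicate 1, which stood apart in Fos, Jun and Egr1. A ranking without those libraries was not made.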

How the data were processed

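The deposited file holds raw read counts per gene for 29 libraries. Per the submitters' processing notes HTSeq 0.11.0, TopHat and the build GRCm39 were used, with cutadapt 2.10, Picard 2.13.2, SAMtools 1.10 and FastQC 0.11.9 beside them; the annotation release and strand setting were not given in the sources used here. Totals were 5670450 to 12671476 counts per library. RNA quality number, a score, and sorting day came from the authors' deposited sample table.

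Here edgeR 4.0.16 (R 4.3.3) filtered genes by expression, scaled libraries by TMM and fitted 1 coefficient per group across all 29 libraries with the robust quasi-likelihood test; calls are at a Benjamini-Hochberg adjusted p under 0.05 over all 16632 genes tested. Alternatives used DESeq2 1.42.0, limma 3.58.1, other filters and scalings, covariates and left-out libraries. The code was tested on simulated data. Log2 CPM used a prior count of 2.

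The members and lists were chosen with earlier results of these data known. Named list genes are at most 2 called genes with the largest change per list, direction and comparison; genes named for replicate 1, and Klf4, were chosen after their values were seen. Replicate numbers are not stated to pair animals. Promoter windows are from RefSeq (GRCm38.p6), and those of 8 of 10 members were used. Member windows on the chromosome of Egr1 were left out of the search, and no window was found for Egr3.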

Additional observations from a re-analysis of the deposited data

Results flagged for a closer look

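In each group of 4 or 5 libraries, the gap of the highest or lowest library to its nearest neighbour was divided by the range of the group and compared with Dixon's critical value. For independent values with a normal spread, chance marks about 1 in 20 groups. The values here were CPM without logs, and the members share libraries, so that rate cannot be set against the 48 pairs. Of 48 pairs of a tested member and a group 12 stood out, and 10 of the 12 were a replicate 1.

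In saline mice these were Fos at 42.1 CPM in PP replicate 1 (others 1.48 to 3.40) and 102 CPM in PBP replicate 1 (others 0.626 to 1.75), Jun at 708 CPM (others 154 to 232) and 1245 CPM (others 130.5 to 177) in the same libraries, and Egr1 at 60.3 CPM (others 2.66 to 7.94) and 152 CPM (others 2.24 to 8.87). After repeated LPS, LL replicate 1 stood above its group in Egr1, at 135 CPM (others 88.9 to 98.5), and in Egr2, at 57.7 CPM (others 19.0 to 25.2). LBL replicate 1 stood above its group in Egr1, at 315 CPM (others 36.5 to 109.8), and in Egr2, at 80.1 CPM (others 17.2 to 28.5). Junb in LL replicate 2, at 1154 CPM, lay above the others (401 to 575), and Fos in PL replicate 2, at 52.9 CPM, lay below them (124 to 138).

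Counted over all 8 tested members, replicate 1 was the highest library in 5 of 8 in PP, 6 of 8 in PBP, 5 of 8 in PL, 0 of 8 in PBL, 5 of 8 in LL and 8 of 8 in LBL. The same count was not made over all genes, so these numbers have no background. LBL replicate 1 was also highest in 9 of 16 other immediate early genes and 9 of 20 upstream kinases and factors. It was highest in 2 of 10 other bZIP genes and 0 of 6 heat shock genes. Fos was highest in replicate 1 in 5 of the 6 groups and lowest in the other. What replicate numbers stand for is not given in the sources used here.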

How the results depend on the processing

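Of 1896 values of single members under an alternative, 1826 kept their direction and side of the threshold or were not called in either setting, 28 lost a call, 42 gained one and 0 called values changed sign; 80 values without a call in either setting changed sign. For the other tools, added terms, fits on single comparisons and single left-out libraries, the share of all genes called is not given here or above. Counts of members called in those settings therefore have no background. Members called lower between PL and LL numbered 1. The count was 2 with the replicate number as a block and 0 with the sorter in the fit. It was 3 with DESeq2, 3 with limma voom and 5 with only the groups compared. With limma voom 1 member was lower between PBP and PBL, 5 between PBL and LBL and 1 between PL and PBL. With the sorter in the fit 3 were higher and 0 lower both between PP and LL and between PBP and LBL. Leaving out PP and PBP replicate 1 together gave 7 higher between PBP and LBL. Leaving out 1 library at a time gave 5 to 7 higher (7 without PBP replicate 1) and 0 to 1 lower between PBP and PBL (Atf3, -0.67, adjusted p = 0.0393, without PBL replicate 3), 1 to 2 lower between PL and LL, 2 to 3 lower between PBL and LBL, 4 to 6 higher between PP and LL, 4 to 7 higher between PBP and LBL (7 without PBP replicate 1) and 0 to 1 higher between PL and PBL (Jund, without PL replicate 3); the cause was not tested. Libraries of the same replicate number shared no deviation in most pairs (correlations from -0.31 to 0.29; 2 pairs over 0.1 in PP and LL and 2 in PP and PBP), so the numbers were not taken to pair them. With the number as a block Fos rose between PBP and PBL (3.61, adjusted p = 0.00317), Fosl2 fell between PL and LL (-0.65, 0.0191), Egr1 fell between PBL and LBL (-2.68, 0.0242), Fos rose between PP and LL (2.99, 0.0143) and Egr1 rose between PBP and LBL (2.49, 0.0153), none of which passed in the same edgeR fit without the block. Sorting day in the fit was not run for LL or LBL against the other groups, since they share no day. At these depths Fosb and Egr3 could not be followed.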
